A study of Rattus norvegicus with 48 samples.

Results

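Liver was compared 4 h after a single oral dose of 18 mg/kg and 4 h after 3 mg/kg of RDX, a nitramine explosive. The comparison took the 3 liver arrays labelled 18 mg/kg and 4 h and set them directly against the 3 labelled 3 mg/kg and 4 h, which is 6 of the 48 arrays in the series. The rats were male Sprague-Dawley, housed in pairs, and swallowed RDX in a gel capsule at doses described as not causing seizures. Their age is not given in the sources used here. Neither group is untreated and no vehicle group was sampled at 4 h, so each value below sets the higher dose against the lower dose. The 3 arrays of a group are not stated to come from 3 animals, so a p-value here speaks only of the spread among arrays. Values are the log2 signals deposited for Affymetrix rat arrays, on which a probe set is a group of short probes for 1 transcript. Of 31042 probe sets tested, 20826 carried a single gene symbol, and each of 14217 genes was represented by its brightest such probe set.

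RDX is known as a blocker of the GABA type A receptor in brain. The liver clears it, and the liver also switches between making and burning fat: after feeding, insulin and sugar raise lipogenic enzymes through the transcription factors SREBP-1c and ChREBP, and in fasting PPAR-alpha raises the enzymes of fatty acid oxidation. Sterol synthesis is run by SREBP-2 and falls when cholesterol is plentiful. Cytochrome P450 enzymes of the liver oxidise drugs, steroids and fatty acids.

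One of the 6 arrays stood apart. In 18 mg/kg replicate 1 the log2 values had an SD of 1.38, while replicates 2 and 3 of that dose had 1.97 and 2.04 and the 3 mg/kg arrays 1.95 to 1.96. It correlated with the other 4 h arrays at 0.819 to 0.829, while those 5 correlated with each other at 0.978 to 0.992. The array was compressed: its bright probe sets lay lower and its dim ones higher than on the other arrays. Relative to the mean of the other 5 arrays, the median of the 10348 dimmest probe sets was 0.70 higher and that of the 10347 brightest was 0.89 lower (a median difference of -0.89). Defining hepatocyte transcripts averaged 10.6 on this array, against 13.7 in both other 18 mg/kg arrays and 13.5 in each 3 mg/kg array. Differences are therefore given with and without it, in that order where 2 values stand together.

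A second measure moved with the dose. The 3' minus 5' gap of the actin control probes, which grows as RNA degrades, was 0.617, 3.06 and 3.06 log2 units in the 18 mg/kg arrays and 3.19, 3.73 and 3.84 in the 3 mg/kg arrays. For GAPDH it was 1.02, 2.89 and 2.53 at 18 mg/kg and 3.55, 3.63 and 3.94 at 3 mg/kg. The groups did not overlap for either gap, with or without replicate 1. An exact permutation test over the 20 splits gave p = 0.1 for each, the smallest p it can give. A gap between a brighter and a dimmer probe set also narrows when values are compressed. In replicate 1 compression and RNA integrity therefore cannot be told apart. The part of RNA integrity in the differences below was not tested beyond a fit with the actin gap as a covariate.

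**Figure D1:**
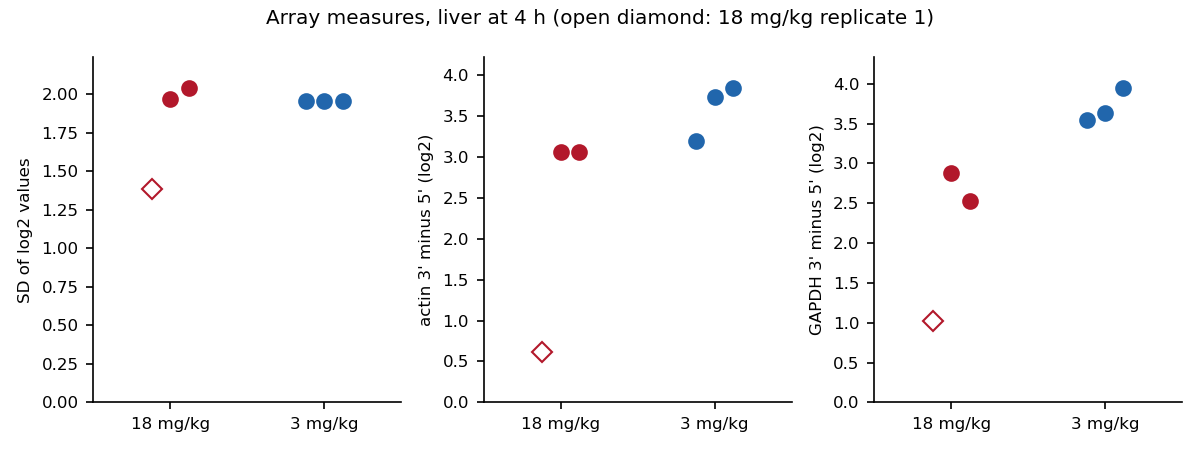
SD of log2 values, actin 3' minus 5' gap and GAPDH 3' minus 5' gap (log2 units, vertical axes from 0) in each liver array at 4 h, with 18 mg/kg on the left and 3 mg/kg on the right. Replicate 1 of 18 mg/kg, the open diamond, has an SD of 1.38 and the smallest gaps, and all 18 mg/kg arrays lie below all 3 mg/kg arrays in both gaps.

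The number of genes called depended on how the spread was estimated. With all 6 arrays, limma with the spread shared over 24 liver arrays called 0 of 31042 probe sets at an adjusted p under 0.05 (0%). In that fit 3040 had an unadjusted p under 0.05, 1059 of them higher and 1981 lower at 18 mg/kg, and the smallest adjusted p was 0.32. Without replicate 1 the same fit on 23 arrays also called 0 (0%), with 1260 at an unadjusted p under 0.05 and a smallest adjusted p of 0.21. When only the 5 remaining 4 h arrays were fitted, limma called 802 probe sets, 546 higher and 256 lower at 18 mg/kg (2.58%, 1.76% and 0.825% of those tested). The typical SD was 0.172 in the 5-array fit, 0.278 in the 23-array fit and 0.325 in the 24-array fit. At the level of genes, the 5-array fit called 298 higher (2.1%) and 109 lower (0.767%). Of its 802 calls, 741 had the same direction with all 6 arrays and 442 had an unadjusted p under 0.05 in the 23-array fit. Both of these fits hold the same 5 arrays, so they are no independent check of the 5-array fit. Its count was 725 without 18 mg/kg replicate 2 and 21 without replicate 3. Without 3 mg/kg replicates 1, 2 and 3 it was 47, 5 and 40, and with the actin gap as a covariate it was 1. In these 5 arrays the gap did not overlap between the doses, so that covariate fit cannot tell gap and dose well apart. The covariate also takes 1 of the 3 residual degrees of freedom. With array weights estimated by limma, which gave replicate 1 a weight of 0.0545, the 24-array fit called 861 probe sets, 363 higher and 498 lower. Below, a gene is said to pass only with the fit named beside it, and the genes picked out because the 5-array fit called them were picked with their values in view.

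Among genes of fatty acid synthesis, Fasn and Me1 were lower at 18 mg/kg in the 5-array fit, and no member passed in the 24-array or 23-array fit. Fasn, the fatty acid synthase that builds palmitate, was at 10.98, 10.87 and 10.06 log2 in the 18 mg/kg arrays and at 11.75, 11.83 and 12.01 in the 3 mg/kg arrays. All 3 arrays of the higher dose lay below all 3 of the lower dose, the compressed array among them. The log2 difference of Fasn was -1.23 ± 0.24 (SE, n = 3 against 3; limma adjusted p = 0.33), and without replicate 1 it was -1.40 ± 0.25, or 2.64-fold lower (n = 2 against 3; limma adjusted p = 0.21). In the 5-array fit Fasn passed (limma adjusted p = 0.024). Its other probe set differed by -1.995 with all arrays and -0.94 without replicate 1. Me1, the cytosolic malic enzyme that supplies NADPH for lipid synthesis, was at 7.84, 9.26 and 9.41 in the 18 mg/kg arrays and at 10.05, 10.21 and 10.63 in the 3 mg/kg arrays. Here too the groups were apart, and the compressed array lay lowest. The log2 difference of Me1 was -1.46 ± 0.33 with all arrays (limma adjusted p = 0.44) and -0.96 ± 0.27 without replicate 1, with a limma adjusted p of 0.034 in the 5-array fit. The second probe set of Me1 was at -1.02 and -0.52.

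All 17 genes of the fatty acid synthesis list were measured. In 9 of them the 18 mg/kg arrays all lay below the 3 mg/kg arrays, and in none above, where 11% of all genes were lower and 7.12% higher in this way (8.1% and 7.44% of all probe sets). Without replicate 1 the counts were 11 lower and 1 higher, beside 19.4% and 21% of all genes. The median log2 difference of the list was -1.04 with all arrays and -0.42 without replicate 1, against 0.00 and -0.01 over all genes. It stayed between -0.39 and -0.45 without replicate 1 under quantile normalisation, median centring and scaling to the same median and SD, and with the actin gap as a covariate it was -0.24. The calls in the 5-array fit were Fasn and Me1, which is 2 of 17 genes, beside 0.767% of all genes called lower. In tissue RNA, fewer cells of a type and less RNA per cell cannot be told apart.

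The remaining members, all given here, did not pass in any of the 3 fits. Pnpla3, a lipase of lipid droplets, differed by -1.04 with all arrays and -1.28 without replicate 1. Mlxipl, which encodes ChREBP, stood at -1.07 and -0.66. Thrsp, a lipogenic protein induced by thyroid hormone, stood at -1.62 and -0.55, and its other 2 probe sets, whose groups overlapped, at -0.01 and -0.21 without replicate 1. Scd is the stearoyl-CoA desaturase. Scd was at 7.69, 11.44 and 11.36 in the 18 mg/kg arrays and at 11.73, 12.08 and 12.58 in the 3 mg/kg arrays, so its difference was -1.97 with the compressed array and -0.73 without it. Gpam (-0.32 and -0.49), Elovl6 (-0.36 and -0.43), Acaca (-0.47 and -0.36), Acly (-0.87 and -0.28) and Fads1 (-1.13 and -0.24) had no overlap once replicate 1 was left out. Srebf1, the gene of SREBP-1c, differed by -0.92 with all arrays and -0.42 without replicate 1, and its groups overlapped in both, with a dimmer probe set at 0.16 and 0.13. With the actin gap as a covariate the sign of Srebf1 and Acly turned, to 0.07 and 0.01. Dgat1, Dgat2, Fads2 and Acacb differed by -0.66, -1.29, -1.27 and 0.23 with all arrays and by -0.25, -0.09, 0.02 and 0.04 without replicate 1. Elovl5, an elongase of polyunsaturated fatty acids, was on the other side, at 0.20 and 0.52.

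**Figure D2:**
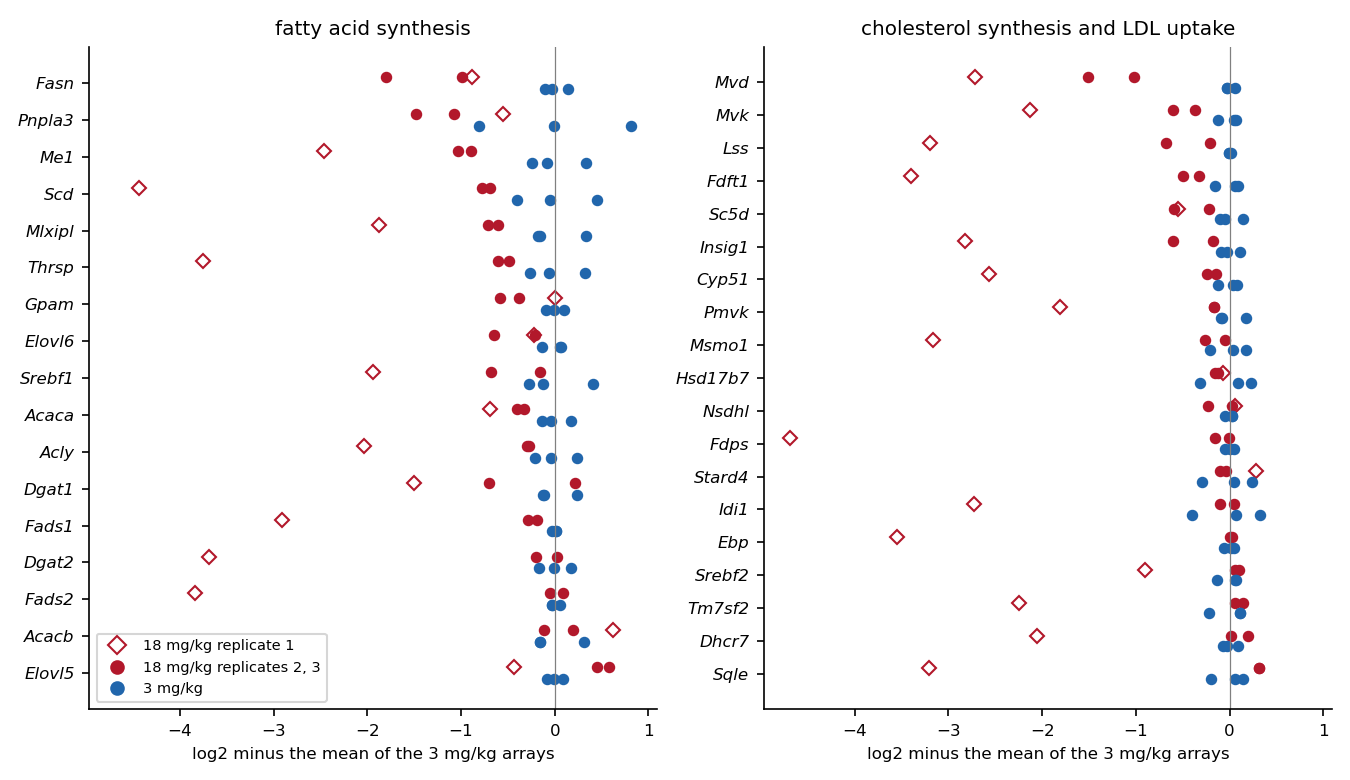
Log2 value of each liver array at 4 h minus the mean of the 3 mg/kg arrays (horizontal axis) for every measured gene of fatty acid synthesis (left) and of cholesterol synthesis and LDL uptake (right), with 18 mg/kg drawn above 3 mg/kg in each row. Replicates 2 and 3 of 18 mg/kg lie left of the 3 mg/kg arrays in 11 of 17 genes on the left and 8 of 19 on the right, while replicate 1, the open diamond, lies left of its 2 partners in most genes.

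Of the sterol genes Mvd alone passed, and only in the 5-array fit. Mvd, the mevalonate diphosphate decarboxylase of the cholesterol pathway, was at 6.71, 8.40 and 7.92 in the 18 mg/kg arrays and at 9.49, 9.39 and 9.39 in the 3 mg/kg arrays. The 3 mg/kg arrays lay close together and above every 18 mg/kg array. Its log2 difference was -1.75 ± 0.44 with all arrays (limma adjusted p = 0.50) and -1.26 ± 0.44 without replicate 1, and Mvd passed in the 5-array fit (limma adjusted p = 0.018). Of 24 listed genes 19 were measured, and in 8 the 18 mg/kg arrays lay below the 3 mg/kg arrays, both with and without replicate 1, where 11% and 19.4% of all genes did so. Those were Mvd, Mvk, Lss, Fdft1, Sc5d, Insig1, Cyp51 and Pmvk. Mvk, the mevalonate kinase, differed by -1.03 and -0.48, Lss, the lanosterol synthase, by -1.36 and -0.45, and Fdft1, the squalene synthase, by -1.41 and -0.41. Insig1, which retains SREBP in the endoplasmic reticulum, differed by -1.20 and -0.39. Without replicate 1 the other 2 probe sets of Mvk stood at -0.13 and 0.54, and the other probe set of Lss at -0.05. Sqle, the squalene epoxidase, stood at -0.86 with all arrays and 0.31 without replicate 1. Apart from Mvd, the sterol genes given with values were chosen with those values in view. The median of the list was -0.92 with all arrays and -0.14 without replicate 1. Mvd was the 1 call of the 5-array fit, beside 0.767% of all genes called lower.

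The start regions of Mvd and Me1 are shown because these were the called genes of fatty acid and sterol synthesis whose promoters were at hand. That of Cxcl1, described next, is shown because it had the largest fall among named genes called in the 5-array fit. Each is the 250 bases before the RefSeq gene start on the strand of the gene (build GRCr8), which for Mvd is chr19:67414975-67415224, for Me1 chr8:96540245-96540494 and for Cxcl1 chr14:17479322-17479571, all on the minus strand. Capitals mark matches, on either strand, to the NF-Y box CCAAT in Mvd and to a form of the NF-kB site (GGG, any 2 bases, then TTTCC) in Cxcl1.
Mvd: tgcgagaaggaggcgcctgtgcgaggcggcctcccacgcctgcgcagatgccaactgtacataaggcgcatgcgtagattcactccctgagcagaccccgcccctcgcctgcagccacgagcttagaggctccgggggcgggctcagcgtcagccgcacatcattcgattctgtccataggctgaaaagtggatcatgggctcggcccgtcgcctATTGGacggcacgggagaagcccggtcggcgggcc
Me1: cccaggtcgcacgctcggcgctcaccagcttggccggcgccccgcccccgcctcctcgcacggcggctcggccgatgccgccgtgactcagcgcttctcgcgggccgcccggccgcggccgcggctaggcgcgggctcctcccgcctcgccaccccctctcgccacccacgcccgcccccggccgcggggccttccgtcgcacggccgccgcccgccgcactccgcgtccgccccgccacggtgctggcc
Cxcl1: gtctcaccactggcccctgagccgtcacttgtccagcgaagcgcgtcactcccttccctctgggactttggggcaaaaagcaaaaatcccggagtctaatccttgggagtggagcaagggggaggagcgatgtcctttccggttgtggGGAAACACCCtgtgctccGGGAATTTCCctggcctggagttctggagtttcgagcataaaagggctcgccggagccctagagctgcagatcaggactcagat
Of 33469 RefSeq promoters cut in the same way, 34% held CCAAT and 1.3% held that NF-kB form. Me1 held neither of these, nor the E-box CACGTG (5.59% of promoters) nor the sterol element TCACNCCAC (0.974%), and neither Mvd nor Cxcl1 held the last 2. The start regions of Acly, Scd, Cpt1a and Stat2 were searched too and are not printed. Apart from CCAAT in Acly and Stat2, they held none of these forms. A match describes the letters only.

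Cxcl1, a chemokine that draws neutrophils, was lower at 18 mg/kg than at 3 mg/kg. It was at 6.07, 6.23 and 6.71 in the 18 mg/kg arrays and at 8.002, 8.15 and 8.29 in the 3 mg/kg arrays. The compressed array lay beside its 2 partners for this gene. The log2 difference was -1.81 ± 0.33 with all arrays (3.51-fold lower, limma adjusted p = 0.32) and -1.68 ± 0.36 without replicate 1, and Cxcl1 passed in the 5-array fit (limma adjusted p = 0.011). With array weights it passed as well (limma adjusted p = 0.0011). Across the liver arrays of both doses at 0, 24 and 48 h Cxcl1 lay between 5.22 and 7.19, so the 3 mg/kg arrays of 4 h were the high ones and those of 18 mg/kg lay within the range of the other times. The difference at 4 h was not shown to differ from that at 0 h (-2.26 ± 0.47, limma adjusted p = 0.27) or 24 h (-2.13 ± 0.47, limma adjusted p = 0.34).

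The list of 24 chemokine, cytokine and NF-kB feedback genes that holds Cxcl1 had no common direction. Its median was 0.01 with all arrays and -0.09 without replicate 1. Without that array 8 members were higher and 7 lower without overlap, beside 21% and 19.4% of all genes. With all arrays the counts were 2 and 3, beside 7.12% and 11% of all genes. Cxcl1 was the 1 call of the 5-array fit, beside 0.767% of all genes called lower. Nfkbia, which encodes the inhibitor of NF-kB, differed by -1.18 and -0.49, Tnf by 0.02 and -0.34, and Ccl2 by -0.21 and -0.33. Cxcl10 differed by 0.04 and 0.54, and Vcam1, an endothelial adhesion receptor for leukocytes, by 0.51 and 0.59. None of these 5 passed in the 5-array fit, and they were chosen with their values in view. Neutrophil markers averaged 5.93, 5.62 and 5.31 in the 18 mg/kg arrays and 5.68, 5.69 and 5.69 in the 3 mg/kg arrays.

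**Figure D3:**
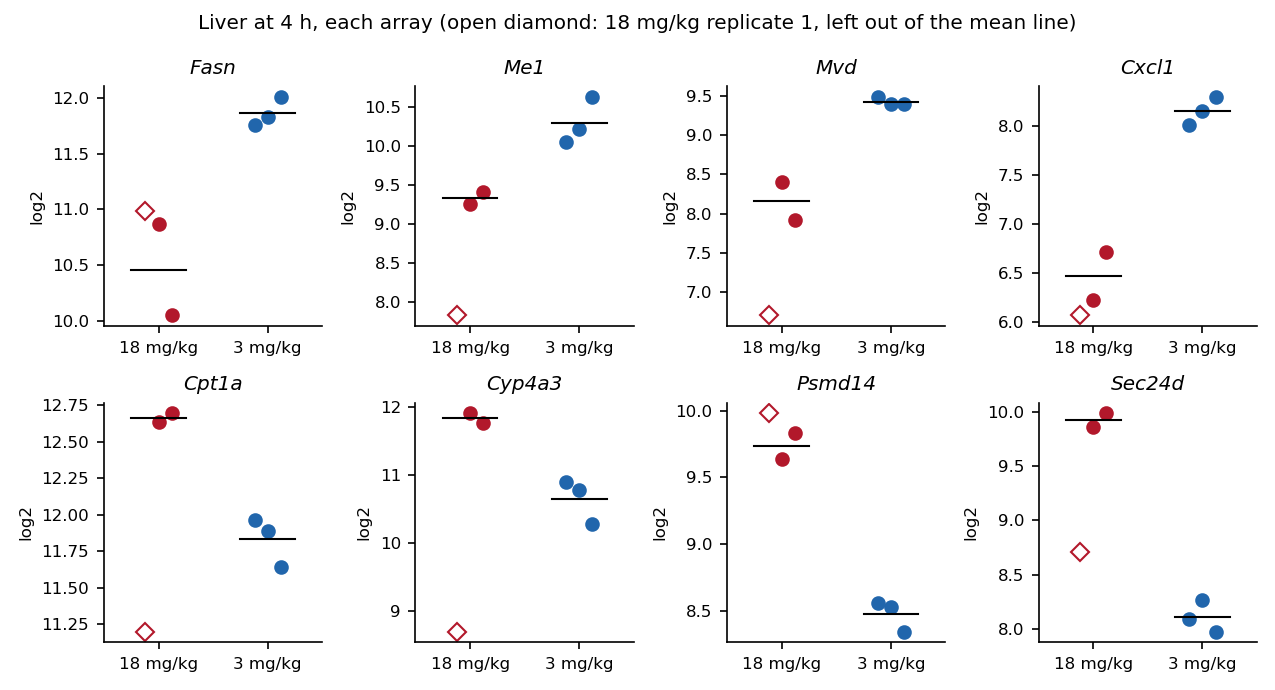
Log2 level of 8 genes in each liver array at 4 h (vertical axis of each panel), with 18 mg/kg on the left and 3 mg/kg on the right; lines are means without 18 mg/kg replicate 1, the open diamond. In the top row all 18 mg/kg arrays lie below the 3 mg/kg arrays; in Cpt1a and Cyp4a3 the diamond lies below the 3 mg/kg arrays and its 2 partners above them.

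Other genes that were lower in all 3 arrays of 18 mg/kg had no common list. Nos1ap, an adaptor of neuronal nitric oxide synthase, was at 6.39, 7.16 and 6.72 in the 18 mg/kg arrays and at 8.60, 8.53 and 8.35 in the 3 mg/kg arrays. Its difference was -1.74 ± 0.40 with all arrays and -1.56 ± 0.44 without replicate 1 (limma adjusted p = 0.44 in the 24-array and 0.011 in the 5-array fit). At 0 h Nos1ap differed between the arms by -1.30, and by -0.83 without the 3 mg/kg 0 h array that also had compressed values. Klf2, an endothelial transcription factor induced by blood flow, was at 9.28, 8.74 and 9.15 in the 18 mg/kg arrays and at 9.92, 9.89 and 10.11 in the 3 mg/kg arrays (-0.92 and, without replicate 1, -1.03; limma adjusted p = 0.024 in the 5-array fit). Its other 4 probe sets were dimmer and lay between -0.18 and 0.04 without replicate 1. Pecam1, an adhesion molecule of endothelium, was at 5.84, 6.94 and 7.39 in the 18 mg/kg arrays and at 8.08, 8.01 and 7.79 in the 3 mg/kg arrays. It differed by -1.23 and -0.79 and did not pass in the 5-array fit (limma adjusted p = 0.052).

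Stat2, which carries the interferon signal to the nucleus, was at 8.53, 9.72 and 9.71 in the 18 mg/kg arrays and at 10.37, 10.35 and 10.40 in the 3 mg/kg arrays. This probe set passed in the 5-array fit (-1.05 and -0.66, limma adjusted p = 0.038), while a second probe set of Stat2 differed by -0.12 and 0.03. Hspg2, the basement membrane protein perlecan, differed by -1.06 and -1.15, Phgdh, the first enzyme of serine synthesis, by -1.28 in both cases, and Palld, an actin-associated scaffold, by -2.28 and -1.46. All 3 passed in the 5-array fit (limma adjusted p = 0.012, 0.04 and 0.028), and at 0 h they stood at -0.95, -0.94 and -1.72. Without the compressed array of 0 h those values were -0.53, -0.77 and -1.31. Ptpn3, a protein tyrosine phosphatase, and Atg16l2, a homologue of an autophagy protein, differed by -0.79 and -0.97 with all arrays and by -0.71 and -0.81 without replicate 1, and passed in the 5-array fit (limma adjusted p = 0.04 and 0.029). The other probe set of Ptpn3 stood at -0.24. Slc34a2, a phosphate transporter, differed by -1.57 and -0.96 and did not pass (limma adjusted p = 0.14).

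Of the genes of fatty acid oxidation and ketogenesis, Cpt1a was higher at 18 mg/kg in the 5-array fit. Cpt1a, which admits long-chain fatty acids to mitochondria, was at 11.20, 12.63 and 12.70 in the 18 mg/kg arrays and at 11.96, 11.89 and 11.64 in the 3 mg/kg arrays. Replicate 1 lay below all 3 mg/kg arrays and its partners above them. The log2 difference of Cpt1a was 0.35 ± 0.36 with all arrays (limma adjusted p = 0.71) and 0.83 ± 0.33 without replicate 1, and it passed in the 5-array fit (limma adjusted p = 0.029). Its dimmer probe set differed by 0.72 and 0.55. Of 26 listed genes 22 were measured, and their median was -0.45 with all arrays and 0.14 without replicate 1. With all arrays 2 were higher and 1 lower without overlap, beside 7.12% and 11% of all genes. Without replicate 1 these counts were 8 and 2, beside 21% and 19.4% of all genes. Cpt1a was the 1 call, beside 2.1% of all genes called higher.

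Acot2 and Pex11a were the members higher in all 3 arrays of the higher dose. Acot2, a mitochondrial acyl-CoA thioesterase, was at 9.63, 8.74 and 9.36 in the 18 mg/kg arrays and at 8.44, 8.34 and 7.84 in the 3 mg/kg arrays. Its brightest probe set differed by 1.03 with all arrays and 0.84 without replicate 1, and another of its 3 probe sets, which passed in the 5-array fit (limma adjusted p = 0.012), by 1.23 and 1.58. Pex11a, which divides peroxisomes, differed by 0.53 and 0.46. Hadhb, a subunit of the mitochondrial trifunctional protein, differed by -0.10 with all arrays and 0.47 without replicate 1. Acads, the short-chain acyl-CoA dehydrogenase, lay on the other side at -1.03 and -0.41. Pxmp4, a peroxisomal membrane protein outside the list, was at 7.60, 10.53 and 10.78 in the 18 mg/kg arrays and at 9.60, 9.59 and 9.03 in the 3 mg/kg arrays, and passed in the 5-array fit (0.23 and 1.25, limma adjusted p = 0.024). Acot2, Hadhb and Acads were chosen with their values in view.

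Of 20 listed CYP2 and CYP4 genes 18 were measured, and their median was -0.09 with all arrays and 0.33 without replicate 1. With all arrays 2 were higher and 2 lower without overlap, beside 7.12% and 11% of all genes. Without replicate 1 12 were higher and 3 lower, beside 21% and 19.4% of all genes. Cyp4a3, a fatty acid omega-hydroxylase, was at 8.70, 11.91 and 11.77 in the 18 mg/kg arrays and at 10.90, 10.78 and 10.28 in the 3 mg/kg arrays. Its difference was 0.14 with all arrays and 1.19 ± 0.51 without replicate 1, and it passed in the 5-array fit (limma adjusted p = 0.024). So did Cyp2a1 (-0.31 with all arrays and 0.77 without replicate 1, limma adjusted p = 0.035) and Cyp2j4 (0.64 and 0.77, limma adjusted p = 0.031). These were the 3 calls among the 18, beside 2.1% of all genes called higher. At 0 h Cyp4a3 was already higher in the 18 mg/kg arm, by 1.94, and by 1.18 without the compressed array of that time. Cyp4a8 was at 7.98, 8.37 and 6.92 in the 18 mg/kg arrays and at 6.30, 6.08 and 6.35 in the 3 mg/kg arrays, and at 0 h it differed by -1.14, or by -1.56 without the compressed array of that time. At 4 h it differed by 1.52 and 1.40 and did not pass in the 5-array fit (limma adjusted p = 0.070). Cyp2u1 differed by -0.77 and -0.71. Cyp4a3 and Cyp4a8 were chosen with their values in view.

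Among targets of the xenobiotic receptors, Cyp3a9, a steroid hydroxylase, was at 11.21, 10.85 and 11.27 in the 18 mg/kg arrays and at 10.14, 10.10 and 10.06 in the 3 mg/kg arrays. The groups did not overlap, replicate 1 included, and Cyp3a9 passed in the 5-array fit (1.01 and 0.96, limma adjusted p = 0.026). It was the 1 call among 7 measured PXR targets, beside 2.1% of all genes called higher. The median of these targets was 0.22 with all arrays and 0.44 without replicate 1. The 7 measured CAR targets had medians of -0.45 and 0.20, and none was called. The 7 measured AhR targets had medians of -0.01 and -0.18. Among them Tiparp, an ADP-ribosyltransferase that limits the AhR, was the 1 that passed (0.80 and 1.31, limma adjusted p = 0.019 in the 5-array fit), beside 2.1% of all genes called higher. Its dimmer probe set differed by -0.69 and -0.24. Cyp1a1, the classical target of that receptor, differed by -0.07 and -0.37 and its groups overlapped. Abcb4, the phospholipid exporter of the bile canaliculus, was the 1 call among 19 transporters (0.69 and 0.87, limma adjusted p = 0.031), beside the same 2.1%. Abcg5, a sterol exporter, stood at 0.64 and 1.34 (limma adjusted p = 0.051). Most of these genes were already higher in the 18 mg/kg arm at 0 h. Without the compressed array of that time, Cyp3a9, Tiparp, Abcb4 and Abcg5 differed there by 0.56, 1.01, 0.65 and 1.35, and Cyp1a1 by -0.18. Abcb4 was chosen with its values in view.

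Genes with large rises in the 5-array fit did not belong to 1 list. Sec24d, a coat protein of vesicles leaving the endoplasmic reticulum, was at 8.71, 9.86 and 9.99 in the 18 mg/kg arrays and at 8.09, 8.27 and 7.98 in the 3 mg/kg arrays. It was higher in all 3 arrays, by 1.41 ± 0.62, and without replicate 1 by 1.81 ± 0.67 (limma adjusted p = 0.51 in the 24-array and 0.0062 in the 5-array fit). Psmd14, the deubiquitinase of the proteasome lid, was at 9.98, 9.64 and 9.83 in the 18 mg/kg arrays and at 8.56, 8.53 and 8.34 in the 3 mg/kg arrays. Its 3 probe sets differed by 1.34, 0.82 and 0.88 with all arrays and by 1.26, 1.82 and 1.73 without replicate 1, and each passed in the 5-array fit. Igfbp7, a secreted binding protein of the IGF family, was at 9.83, 10.51 and 10.76 in the 18 mg/kg arrays and at 9.10, 9.08 and 8.81 in the 3 mg/kg arrays (1.37 and 1.64, limma adjusted p = 0.0095 in the 5-array fit). Gabarapl1, an autophagosome protein, and Cd59b, an inhibitor of complement lysis, stood at 0.21 and 0.62 with all arrays. Without replicate 1, which lay below all 3 mg/kg arrays for both, they stood at 1.54 and 1.57. The other probe set of Gabarapl1 differed by -0.20 and 0.33 and did not pass in the 5-array fit (limma adjusted p = 0.29).

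The same genes had positive differences at 0 h. There the 18 mg/kg arm exceeded the 3 mg/kg arm by 2.15 for Sec24d, 2.02 for Psmd14, 2.30 for Igfbp7, 1.89 for Gabarapl1 and 1.40 for Cd59b. Without the 3 mg/kg 0 h array that also had compressed values these were 1.65, 1.18, 1.21, 1.28 and 0.88. Of the 298 genes called higher in the 5-array fit, 293 were higher at 0 h too, with a median difference of 1.27. Without that array 287 were higher and the median was 0.75, against 0.05 over all genes. Of the 109 called lower, 88 were lower at 0 h (median -0.48), and 82 without that array (median -0.20). At 24 h 249 of the 298 genes lay above 0 and 49 below, where 7487 of all 14217 genes lay above. At 48 h 275 of the 298 lay below 0 and 23 above, where 7822 of all genes lay below. Actin gaps at 0 h were 3.35, 3.77 and 2.90 in the 18 mg/kg arm and 4.38, 3.29 and 3.88 in the 3 mg/kg arm. For Fasn, Me1, Mvd and Cxcl1 the 0 h differences were smaller in size than those at 4 h, at -0.71, -0.45, -0.07 and 0.45. Without the compressed array of 0 h they were -0.57, -0.49, 0.28 and 0.18. Fasn had no overlap at 0 h either, at 11.24, 11.79 and 11.35 at 18 mg/kg and 11.99, 12.45 and 12.07 at 3 mg/kg. Other lipid genes differed: without the compressed arrays Sqle and Elovl5 stood at 0.73 and 0.55 at 0 h and at 0.31 and 0.52 at 4 h. No probe set passed the test of the 4 h difference against the 0 h difference (limma, 0 of 31042, 5717 at an unadjusted p under 0.05, smallest adjusted p 0.27), and none did without replicate 1.

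**Figure D4:**
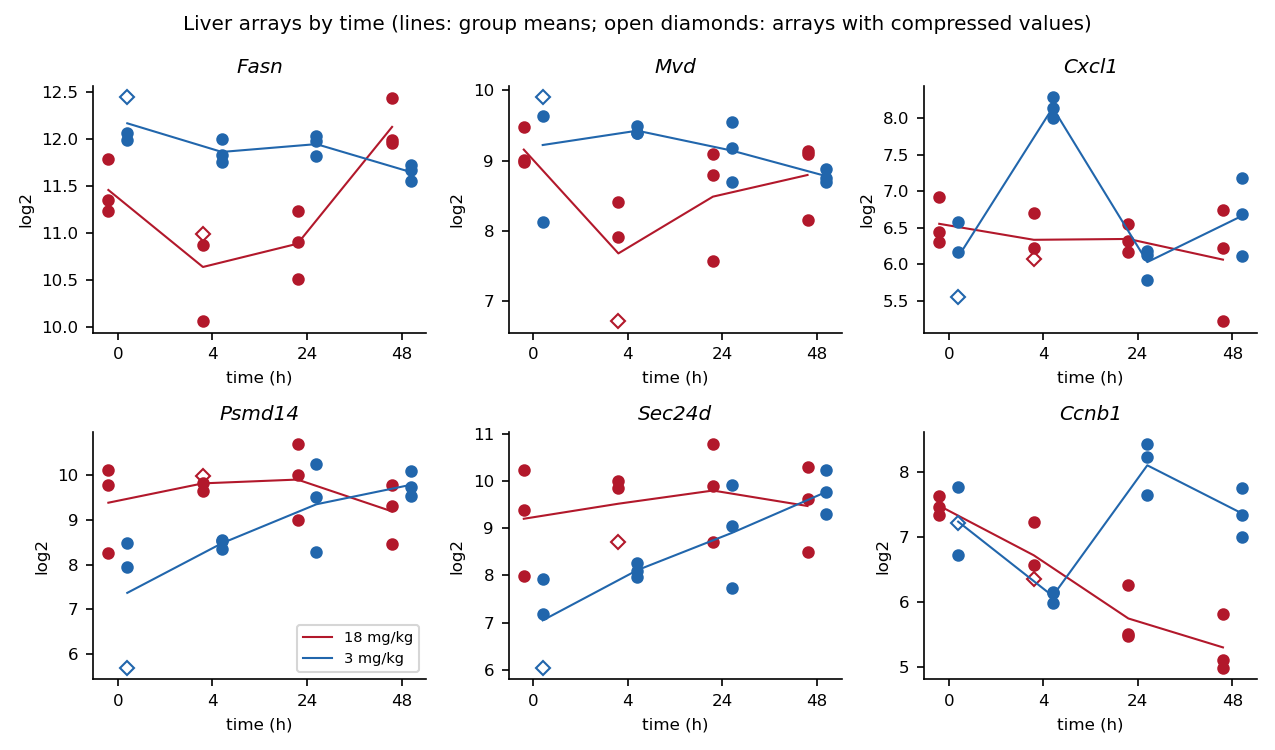
Log2 level in each liver array (vertical axes) at 0, 4, 24 and 48 h for 6 genes, with 18 mg/kg left of 3 mg/kg at each time; lines join group means and open diamonds are the arrays with compressed values. Cxcl1 stands at 8.002 to 8.29 in the 3 mg/kg arrays of 4 h and between 5.22 and 7.19 in all other arrays, and the means of Psmd14 and Sec24d are higher at 18 mg/kg at 0 h as at 4 h. Times are evenly spaced, not to scale.

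Several further genes were higher in all 3 arrays of 18 mg/kg. Klhdc7a, a kelch domain protein, was at 7.82, 7.10 and 6.63 in the 18 mg/kg arrays and at 6.13, 6.04 and 5.68 in the 3 mg/kg arrays (1.23 with all arrays, 0.91 without replicate 1). Sod3, the extracellular superoxide dismutase, was at 7.83, 8.21 and 8.20 in the 18 mg/kg arrays and at 7.31, 6.90 and 6.96 in the 3 mg/kg arrays (1.03 and 1.15). Spink1, a trypsin inhibitor, was at 9.38, 9.26 and 8.85 in the 18 mg/kg arrays and at 6.97, 7.42 and 7.81 in the 3 mg/kg arrays, a difference of 1.76 and 1.65, although 1 of its 3 probe sets differed by -0.41 and 0.36. Kdm8, a hydroxylase of the JmjC family, Tubb1, a beta-tubulin, Rad51b, a recombination protein, and Soat1, which esterifies cholesterol, differed by 1.02, 0.88, 1.33 and 0.81 with all arrays and by 0.94, 0.82, 0.76 and 0.72 without replicate 1. The Soat1 probe set was dim, below the median of each array. It was at 5.69, 5.28 and 5.57 in the 18 mg/kg arrays and at 4.69, 4.78 and 4.64 in the 3 mg/kg arrays. A second probe set of Soat1 stood at 0.04 and -0.28. Each of these 7 passed in the 5-array fit, with limma adjusted p from 0.02 to 0.046, and in the 24-array fit none did. In Omd, a small proteoglycan, Lrp4, a member of the LDL receptor family, and Rab30, a GTPase of the Golgi, replicate 1 was not higher than the 3 mg/kg arrays. Omd and Lrp4 stood at 0.92 and 0.34 with all arrays and at 1.53 and 0.97 without replicate 1, and passed in the 5-array fit (limma adjusted p = 0.011 and 0.020). Rab30 was at 7.57, 9.25 and 10.47 in the 18 mg/kg arrays and at 8.68, 8.503 and 7.49 in the 3 mg/kg arrays and did not pass (0.87 and 1.63, limma adjusted p = 0.072).

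Many gene lists had medians of opposite sign with and without the compressed array. Cytosolic ribosomal protein genes, 11 of 20 measured, had a median of -0.95 with all arrays and 0.29 without replicate 1, with 11 of 11 below 0 in the first case and 11 of 11 above in the second. After quantile normalisation or scaling to the same median and SD, 9 of 11 were above 0 without replicate 1. With all arrays 10 of 11 stayed below 0 under both. Oxidative phosphorylation, 26 of 28 measured, had medians of -0.56 and 0.26. With all arrays 0 of its members were higher and 2 lower without overlap, beside 7.12% and 11% of all genes. Without replicate 1 these counts were 14 and 3, beside 21% and 19.4% of all genes. Sdha and Sdhc, subunits of succinate dehydrogenase, passed in the 5-array fit (limma adjusted p = 0.044 and 0.048), beside 2.1% of all genes called higher. Sdha stood at 0.30 with all arrays and 0.79 without replicate 1, and Sdhc at -0.35 and 0.77. The proteasome, 22 of 23 measured, had medians of -0.53 and 0.18. With all arrays 2 members were higher and 2 lower without overlap, beside 7.12% and 11% of all genes. Without replicate 1 these counts were 12 and 2, beside 21% and 19.4%. Psma2 (0.10 and 1.02), Psmb2 (-0.20 and 0.63) and Psmd14 passed in the 5-array fit, which is 3 of 22, beside 2.1% of all genes called higher. At 0 h the medians of oxidative phosphorylation and the proteasome were 0.97 and 0.77, and 0.33 and 0.46 without the compressed array of that time. Complement and coagulation, 17 of 25 measured, had medians of -0.69 and 0.14, and without replicate 1 it was 0.01 after scaling to the same median and SD. Sdha, Sdhc, Psma2 and Psmb2 were named because they were called.

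Few lists kept their median on 1 side of 0 at a similar size. For mitosis and cytokinesis, 19 of 20 measured, it was 0.26 with all arrays and 0.25 without replicate 1. Of its members 5 were higher and 0 lower without overlap with all arrays, and 7 and 0 without replicate 1, beside 7.12% and 21% of all genes higher in this way. None was called in the 5-array fit. Kif20a, a mitotic kinesin, stood at 0.46 and 0.60 and Ccnb2, a B-type cyclin, at 0.40 and 0.57, and both were chosen with their values in view. The median of fatty acid synthesis was the lowest of all the plotted lists in both analyses.

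**Figure D5:**
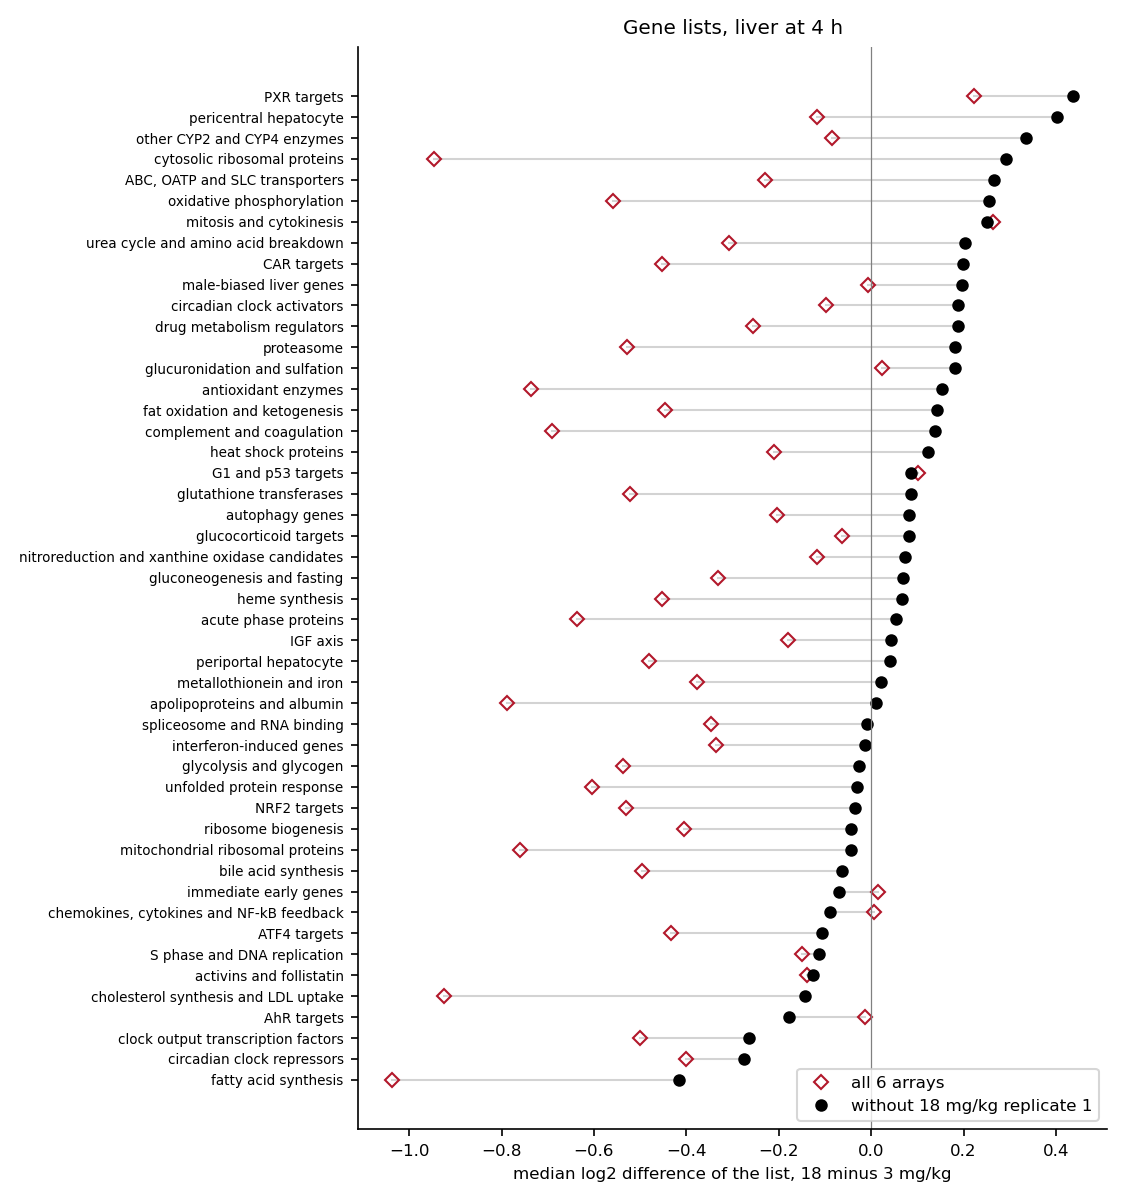
Median log2 difference, 18 minus 3 mg/kg at 4 h (horizontal axis), of each list other than cell type markers; diamonds are all 6 arrays and dots are without 18 mg/kg replicate 1. Fatty acid synthesis lies at -1.04 and -0.42, mitosis and cytokinesis at 0.26 and 0.25, and cytosolic ribosomal proteins at -0.95 and 0.29.

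Of a list of 28 genes of the clock, stress and metabolism, 24 were measured. With all arrays Fkbp5 was higher and Fasn and Hmox1 were lower without overlap, beside 7.12% and 11% of all genes. Without replicate 1 5 were higher (Bmal1, Cpt1a, Fkbp5, Gclc and Tat) and 3 lower (Fasn, Fos and Hmox1), where 21% and 19.4% of all genes did so. Cpt1a and Fasn were the 2 that passed in the 5-array fit, beside 2.1% of all genes called higher and 0.767% called lower. Fkbp5, a glucocorticoid-induced co-chaperone, was at 8.72, 8.34 and 9.84 in the 18 mg/kg arrays and at 8.22, 8.03 and 8.28 in the 3 mg/kg arrays (0.79 and 0.92). Hmox1, the heme oxygenase induced by oxidative stress, was at 7.38, 8.75 and 8.89 in the 18 mg/kg arrays and at 9.50, 9.54 and 9.21 in the 3 mg/kg arrays (-1.08 and -0.60). In the 5-array fit neither passed (limma adjusted p = 0.21 and 0.079). Nr1d1, a clock repressor, and Pck1, the gluconeogenic enzyme, differed by -0.47 and -0.33 with all arrays and by 0.03 and -0.01 without replicate 1. Dbp, a clock output factor, and Bmal1, a clock activator, differed by 0.32 and 0.53 with all arrays and by 0.79 and 1.11 without replicate 1, with limma adjusted p = 0.34 and 0.15 in the 5-array fit. Cyp7a1, the rate-limiting enzyme of bile acid synthesis, was at 10.40, 11.68 and 10.43 in the 18 mg/kg arrays and at 11.48, 11.64 and 11.73 in the 3 mg/kg arrays, which overlapped (-0.78 and -0.56).

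Markers of hepatocytes and of other cell types were followed in the 6 arrays. Their levels do not measure the proportions of cells, and in replicate 1 they carry the compression as well. The 6 hepatocyte markers had a median difference of -0.92 with all arrays and 0.14 without replicate 1. Kupffer cell markers averaged 8.62, 10.39 and 10.11 in the 18 mg/kg arrays and 10.51, 10.39 and 10.10 in the 3 mg/kg arrays. Sinusoidal endothelium averaged 7.54, 9.06 and 9.13 in the 18 mg/kg arrays and 9.22, 9.26 and 9.24 in the 3 mg/kg arrays. Stellate cell markers averaged 7.44, 8.08 and 8.19 in the 18 mg/kg arrays and 7.88, 7.89 and 7.92 in the 3 mg/kg arrays. The median difference of the 10 stellate markers was -0.01 with all arrays and 0.12 without replicate 1, where 6 lay above 0 and 4 below. In the latter case 3 were higher and 1 lower without overlap, beside 21% and 19.4% of all genes. Of the 10, 3 were called higher in the 5-array fit, beside 2.1% of all genes. Those were Col3a1, a fibrillar collagen (0.01 and 0.82, limma adjusted p = 0.024), Lrat, which stores vitamin A (0.24 and 0.76, limma adjusted p = 0.028), and Dcn, the proteoglycan decorin (0.41 and 0.94, limma adjusted p = 0.046). Pancreas acinar markers averaged 5.79 to 6.10 in the 18 mg/kg arrays and 5.92 to 6.05 in the 3 mg/kg arrays, where the highest of the 24 liver arrays was at 9.78, and muscle markers were at most 6.62 in the 6 arrays. The part of these cell types in the differences was not tested. Col3a1 and Dcn were named because they were called.

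The dose difference at 4 h was also set against those at 24 and 48 h, which share no array with it. At 24 h 1 probe set of 31042 passed (limma, 0.00322%, 1447 at an unadjusted p under 0.05) and at 48 h 2 passed (0.00644%, 1504 at an unadjusted p under 0.05). One probe set of Ccnb1, the cyclin that starts mitosis, passed both. At 4 h it was at 6.37, 6.58 and 7.23 in the 18 mg/kg arrays and at 6.16, 5.99 and 6.14 in the 3 mg/kg arrays, a difference of 0.63 that did not pass by itself (limma adjusted p = 0.51). At 24 and 48 h its dose differences were -2.36 and -2.06. The differences of Fasn at 4 h and 24 h, -1.23 and -1.06, were alike in sign, and at 48 h Fasn stood at 0.48. The test of 4 h against 48 h did not pass for Fasn (-1.71 ± 0.34, limma adjusted p = 0.25).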

How the data were processed

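RNA of each liver sample was hybridised to Affymetrix rat arrays, and the deposited values are log2 signals. RMA and Partek are the tools listed, per the submitters' processing notes, and neither has a version. RMA usually equalises the distributions of arrays, which would hide a change common to most genes, yet the distributions deposited here differed. Precision rests on how many arrays there are. Of 31099 probe sets, 57 controls were left out, and dim probe sets were kept. Platform annotation gave 20826 a single symbol, 436 several and 9780 none.

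Groups came from the sample labels. Models with 1 mean for each of 8 liver groups were fitted in limma 3.58.1 (R 4.3.3) to all 24 liver arrays, or to 23 without 18 mg/kg 4 h replicate 1. The 4 h contrast, 18 minus 3 mg/kg, and its differences from the contrasts at 0, 24 and 48 h were tested two-sided, with Benjamini-Hochberg adjustment over all probe sets at 0.05. Fits on the 5 or 6 arrays of 4 h, array weights, other scalings, a filter on dim probe sets, 1 probe set per gene, a replicate block and the actin gap as a covariate were alternatives. The models were tested on simulated data.

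The rule for named genes took, with and without replicate 1, the 15 largest rises and 15 largest falls among passing genes without overlap (filled by smallest p where fewer passed), up to 4 passing members or the member of smallest p of each of 60 lists, 28 fixed genes, and up to 10 genes per test of a difference. The same rule was applied to the 5-array fit with its values in view. Members and lists were chosen with earlier results of these data known. Replicate numbers were not treated as pairs: deviations of same-numbered arrays correlated at 0.070, 0.028 and 0.0044. Promoter sequences are RefSeq's (GRCr8), and 250 bases before the gene start were used.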

Additional observations from a re-analysis of the deposited data

Results flagged for a closer look

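In 2 probe sets the dose difference at 4 h differed from that at another time by the test of the difference itself. For Ccnb1 the 4 h difference exceeded the 24 h difference by 2.98 ± 0.43 (SE; limma adjusted p = 0.019, or 0.011 when the compressed array was dropped) and the 48 h difference by 2.69 ± 0.43 (limma adjusted p = 0.044, and 0.025 without it). At 24 h this probe set was at 5.49, 6.26 and 5.51 in the 18 mg/kg arrays and at 8.23, 8.44 and 7.65 in the 3 mg/kg arrays. It was chosen after its values were seen, since another probe set of Ccnb1 is brighter and differed by 0.20 at 4 h. A probe set annotated to more than 1 gene, and so not named, exceeded its 48 h difference by 3.23 ± 0.45 (limma adjusted p = 0.010, and 0.025 without replicate 1). Its dose differences were 0.53 at 4 h, -1.57 at 24 h and -2.70 at 48 h.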

How the results depend on the processing

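With all 6 arrays the count of called probe sets was 0, and it was 861 with array weights. Leaving out 1 array of 4 h at a time gave 0 to 7, the 7 without 18 mg/kg replicate 2. No call was made under the other alternatives run for this comparison. Without replicate 1 the count was 0 and became 802 in the 5 arrays alone, and there 735 after quantile normalisation, 805 after scaling to the same median and SD, 1678 with trend and robust variances and 1 with the actin gap as a covariate. Leaving out 1 further array gave 0 to 725 over the 23-array and 5-array fits. The fits on 5 arrays, other than the plain one, were chosen after seeing the data. Among those arrays the gap did not overlap between the doses, so the fit with the gap cannot tell the 2 well apart. A fit with 1 array left in a group assumes that it varies like the others. The replicate block left both counts at 0. The tests against 24 h and 48 h gave 1 and 2 probe sets, 0 and 1 after scaling to the same median and SD, and 0 and 1 with the replicate block. In the analysis without replicate 1 some differences changed sign under an alternative, and not all of these were near 0. Their values in the 23-array fit were -0.28 for Acly, -0.42 for Srebf1, 0.03 for Nr1d1, -0.01 for Pck1 and -0.56 for Cyp7a1. With the actin gap as a covariate Acly was at 0.014 and Srebf1 at 0.068, and in the 5 arrays alone at 0.019 and 0.008. Nr1d1 was at -0.053 after quantile normalisation, -0.01 after scaling (both also in the 5 arrays alone) and -0.135 with the gap in the 5 arrays. Pck1 was at 0.007 with the replicate block and 0.205 with the gap. Leaving out 1 further array gave -0.088 to 0.139 for Nr1d1, -0.105 to 0.086 for Pck1 and -1.184 to 0.068 for Cyp7a1. The cause of these changes was not tested. The number of arrays limits every value.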

Other observations

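Genes of mitosis and cytokinesis mostly lay above 0 at 4 h and below 0 at later times. The median difference, 18 minus 3 mg/kg, of its 19 measured genes was 0.07 at 0 h, 0.26 at 4 h, -1.39 at 24 h and -1.62 at 48 h. At 24 and 48 h all 19 lay below 0, while at 4 h 17 lay above. Apart from 1 probe set of Ccnb1, no member passed the test of the difference between times. Genes of S phase and DNA replication, 17 measured, had medians of 0.09, -0.15, -0.04 and -0.32.

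The medians of fatty acid synthesis at the same times were 0.40, -1.04, -0.61 and 0.13, and at 24 h all 17 members lay below 0. For cholesterol synthesis and LDL uptake they were 0.58, -0.92, -0.04 and -0.03. Both compressed arrays enter these values. Without that of 4 h the 4 h medians of these 2 lists were -0.42 and -0.14, and without that of 0 h their 0 h medians were 0.08 and 0.23. For mitosis and for S phase the 0 h medians without it were 0.07 and 0.01, and the 4 h medians without replicate 1 were 0.25 and -0.11.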
